A study of Mus musculus with 2 samples.

Results

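Molecular chaperone genes were examined for Dlx5 binding in Lck-Dlx5 T-cell lymphoma. The set comprised the protein-coding autosomal genes of the RefSeq annotation whose symbol begins with Hsp and a letter or number, with Dnaja, Dnajb or Dnajc, or with Cct and a number. The rule reads gene names and gave 83 of 20665 protein-coding autosomal genes. A gene was counted as having a summit when a Myc-Tag summit, the highest point of a called interval, lay within 1 kb of either end of the gene.

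The measurement was chromatin immunoprecipitation followed by sequencing (ChIP-seq), which recovers and locates the DNA fragments attached to a protein. There were 2 libraries, 1 Myc-Tag ChIP and 1 input, with no replicate of either, so no test between them was possible. Both libraries came from tissue labelled as Lck-Dlx5 T-cell lymphoma, in which the Lck promoter drives a Myc-tagged Dlx5 transgene in thymocytes. The Myc-Tag is a short peptide fused to the homeobox protein Dlx5, and the antibody was directed against it. The strain is given as C57BL/6 for the ChIP library and as C57BL/7 for the input, and the passage of both as primary tumor, whereas the methods describe a line of Lck-Dlx5 lymphoma cells, with IgG as the control. Neither an untreated T-cell sample nor a lymphoma without the transgene was part of the comparison, and the age of the animals is not given in the labels. The value of each summit is its height, a deposited whole-number score without a stated normalization. Read totals were not used here, so heights are given with unknown depth and without error.

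Chaperones bind unfolded proteins and let them fold, or hold them until they can be refolded or degraded. Hsp70 proteins (Hspa genes) bind short unfolded stretches in a cycle driven by ATP, J-domain proteins (Dnaj genes) bring them their clients and stimulate that cycle, and Hsp110 proteins (Hsph1, Hspa4, Hspa4l) reset it by exchanging the nucleotide. Hsp90 proteins act late in the maturation of kinases and receptors, small heat shock proteins (Hspb genes) hold unfolded proteins without ATP, and the chaperonins Hsp60 with Hsp10 (Hspd1 with Hspe1, in mitochondria) and CCT (in the cytosol) enclose a client in a ring. Many of these genes are induced by heat through heat shock factor 1, which binds repeats of GAA and its reverse complement TTC, while others are expressed in every growing cell.

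In the Myc-Tag library, a summit lay within 1 kb of an end in 25 of the 83 chaperone genes and in 58 there was none. The share was 30.1% (95% Wilson interval 21.3 to 40.7%), and that of all protein-coding autosomal genes was 11.3% (2345 of 20665). All such intervals given here cover counting error only. At annotated transcription starts, which are known from the promoter table for 68 of the 83 genes, 20 genes (29.4%) had a summit within 1 kb, beside 12.1% of all genes with a start in that table (1985 of 16457). The 25 genes were served by 25 intervals, because Dnaja1 had 2 intervals and Hspd1 and Hspe1 shared 1. The input library had no interval at any of the 25. The input calls say little at these heights, as the input had 28 intervals in all and only 2 of the 3267 Myc-Tag intervals with a summit up to the height of the tallest chaperone interval were among them.

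Of the 9 chaperone families, 8 had at least 1 gene with a summit. The counts were 5 of 13 for Hspa, 2 of 3 for Hsp90, 2 of 2 for Hspd and Hspe, 2 of 4 for Dnaja, 5 of 13 for Dnajb and 5 of 9 for Cct. For the remaining families, 3 of 28 Dnajc genes (10.7%, interval 3.71 to 27.2%) and 1 of 10 Hspb genes (interval 1.79 to 40.4%) had one, shares close to that of all genes, and the single Hsph gene had none. The shares of Hspa, Hsp90, Hspd with Hspe, Dnaja, Dnajb and Cct stood above 11.3%. Genes of 1 library are not replicates, and no family was tested against all genes. At annotated starts the Dnajc share was higher, with 4 of 20 genes, beside 3 of 10 for Hspa, 4 of 13 (30.8%) for Dnajb, 0 of 9 for Hspb and 12.1% for all genes. The count of 2 for Hspd and Hspe rests on their 1 shared interval. With the summit within 250 bp of an end, the Hsp90 count and the Hspd and Hspe count both fell to 0, and at a height of at least 16 the Hspa count fell to 2 of 13, that of Dnajb to 3 of 13, that of Cct to 3 of 9, that of Dnajc to 1 of 28 (3.57%) and that of Hspb to 0 of 10, beside 6.01% of all genes. The families were small, and the differences between them were not tested.

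**Figure D1:**
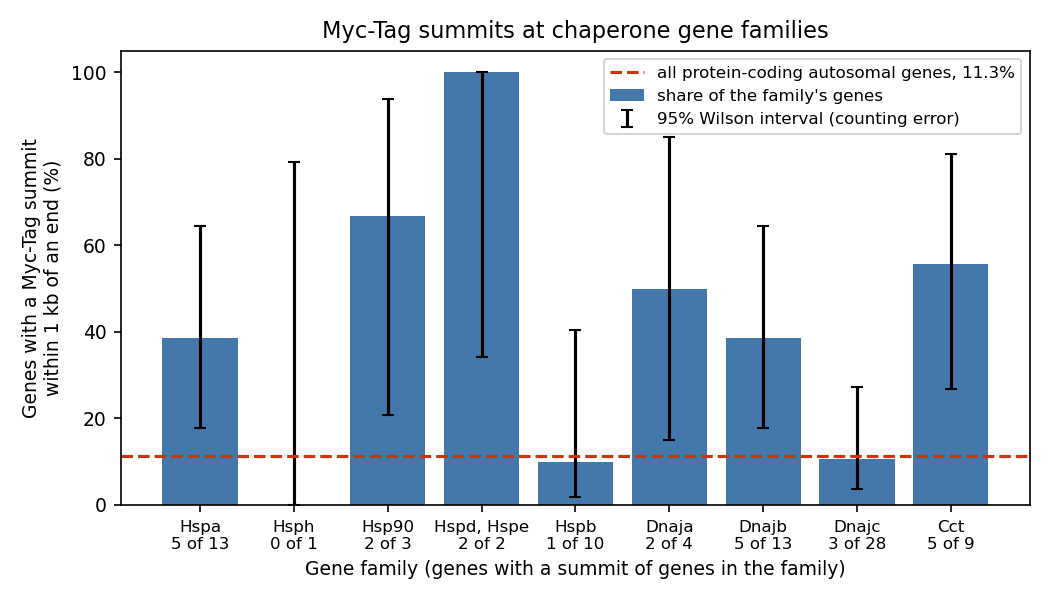
Bars give the percentage of genes in each chaperone family with a Myc-Tag summit within 1 kb of an end, error bars the 95% Wilson interval, and the dashed line the 11.3% of all protein-coding autosomal genes. The Dnajc bar (10.7%) and the Hspb bar (1 of 10 genes) stand near the line, and the Cct bar stands at 55.6%.

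Summits at chaperone genes were of ordinary height. Their median was 16 (order-statistic 95% interval 14 to 19), with quartiles of 14 and 20 and a range from 10 to 27. All 2024 intervals within 1 kb of a protein-coding gene end also had a median of 16, with quartiles of 13 and 19 and a maximum of 73. The intervals at chaperone genes were 409 to 1962 bp wide with a median of 850 bp, and those at all gene ends had a median of 813 bp. Thus the share of chaperone genes with a summit was above that of all genes, while the median height of the summits was equal.

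**Figure D2:**
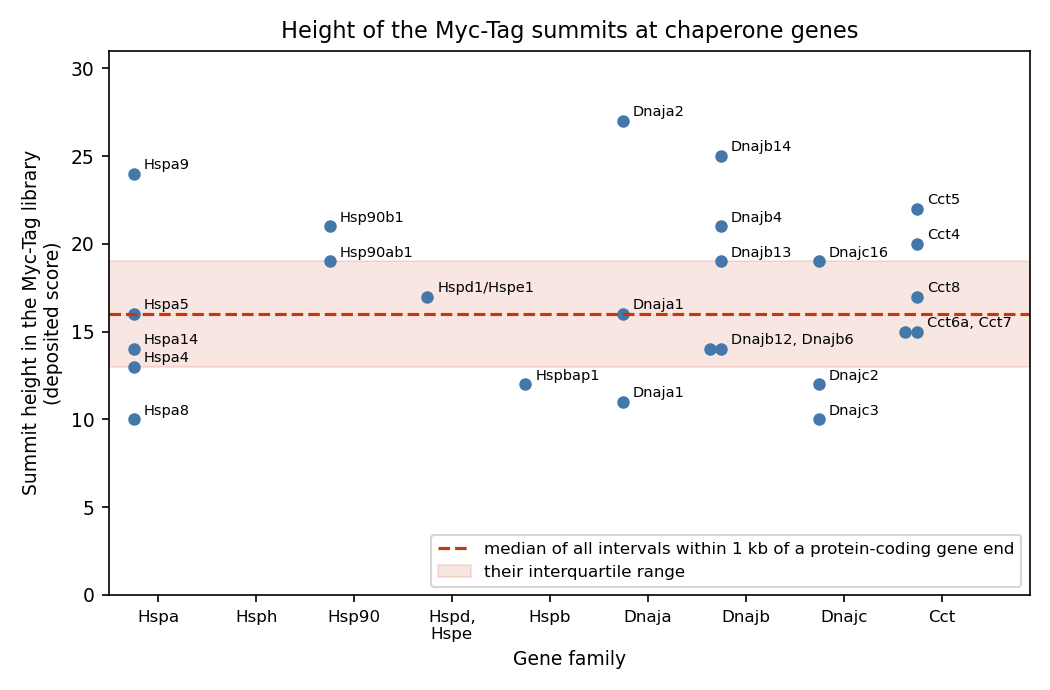
Each point is 1 Myc-Tag interval within 1 kb of a chaperone gene end, plotted by family against its summit height (deposited score), with the median of 16 and the interquartile range of 13 to 19 of all 2024 intervals at protein-coding gene ends as dashed line and band. Dnaja2 stands highest at 27, and Dnajc3 and Hspa8 stand lowest at 10.

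The tallest chaperone summit was at Dnaja2, a type I J-domain cochaperone of cytosolic Hsp70. It had a height of 27, which 210 of the 3477 Myc-Tag summits (6.04%) exceeded. The interval spanned chr8:85554914-85555619 in mm10, with its summit 97 bp downstream of the annotated start at the higher-coordinate end of the gene. The next was Dnajb14, a J-domain protein anchored in the endoplasmic reticulum membrane, with a height of 25 that 285 summits (8.20%) exceeded. Its interval, chr3:137867129-137867794, had the summit 155 bp upstream of the Dnajb14 start and also lay within 1 kb of an end of H2az1, a histone variant gene. The upstream sequences of these genes are shown because each lies wholly inside its interval. They are the 250 bases before the annotated start (RefSeq, GRCm38.p6), 5′ to 3′ on the strand of the gene, for Dnaja2 from chr8:85555362-85555611 on the minus strand and for Dnajb14 from chr3:137867425-137867674 on the plus strand. Capitals, here and in the sequences shown for other genes, would mark the heat shock element letters GAANNTTC or TTCNNGAA, and neither of these stretches holds them.
Dnaja2: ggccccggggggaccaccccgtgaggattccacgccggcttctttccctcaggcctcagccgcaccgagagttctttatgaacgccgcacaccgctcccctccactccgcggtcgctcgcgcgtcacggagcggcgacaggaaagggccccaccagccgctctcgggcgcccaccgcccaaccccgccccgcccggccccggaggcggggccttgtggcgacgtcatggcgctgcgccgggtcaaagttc
Dnajb14: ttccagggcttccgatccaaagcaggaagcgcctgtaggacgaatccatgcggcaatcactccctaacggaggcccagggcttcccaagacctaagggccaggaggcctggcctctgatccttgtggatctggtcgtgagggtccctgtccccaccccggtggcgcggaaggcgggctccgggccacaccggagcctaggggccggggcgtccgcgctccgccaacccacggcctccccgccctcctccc
Both stretches are also without TAATT, the core recognized by Dlx proteins, and without CCAAT.

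Among the Hsp70 genes, Hspa9 had the tallest summit. It encodes mortalin, the Hsp70 of the mitochondrial matrix, and its summit of height 24 lay 65 bp beyond the higher-coordinate end of the gene in an interval 939 bp wide. Hspa5 encodes BiP, the Hsp70 of the endoplasmic reticulum, and had a summit of height 16 located 166 bp downstream of its start, in an interval 1351 bp wide (chr2:34771390-34772740). Hspa14, a ribosome-associated member of the family, had a summit of height 14 at 126 bp downstream of its start, and the same interval lay within 1 kb of an end of Cdnf, a neurotrophic factor gene. Hspa4, an Hsp110 protein that exchanges the nucleotide of Hsp70, had a summit of height 13 at 127 bp downstream of its start. Hspa8 encodes Hsc70, the constitutive cytosolic Hsp70. Its summit had a height of only 10, which 3367 of 3477 summits (96.8%) exceeded, and it lay 291 bp beyond the higher-coordinate end of the gene. Thus the Hsp70 genes Hspa9 (mitochondrial), Hspa5 (endoplasmic reticulum) and Hspa8 (constitutive cytosolic) each had an interval, with heights from 10 to 24. The Hspa8 interval did not overlap the gene, and Hspa8 was lost at a height of at least 16 and with the summit within 250 bp.

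The stress-inducible cytosolic Hsp70 genes had none within 1 kb. Hspa1b lay 4.21 kb and Hspa1a 17.1 kb from the same summit, which had a height of 10 and lay outside both genes, and the testis Hsp70 gene Hspa1l lay 20.5 kb from it. Hspa1a and Hspa1b are near-identical copies on the minus strand of chromosome 17, 10121 bp apart. Their upstream sequences are shown because reads from such copies can be hard to place. Of the 250 bases before each start, 247 (98.8%) were identical. Both are given 5′ to 3′ on the minus strand (RefSeq, GRCm38.p6), Hspa1a from chr17:34972157-34972406 and Hspa1b from chr17:34959239-34959488, with the heat shock element letters in capitals.
Hspa1a: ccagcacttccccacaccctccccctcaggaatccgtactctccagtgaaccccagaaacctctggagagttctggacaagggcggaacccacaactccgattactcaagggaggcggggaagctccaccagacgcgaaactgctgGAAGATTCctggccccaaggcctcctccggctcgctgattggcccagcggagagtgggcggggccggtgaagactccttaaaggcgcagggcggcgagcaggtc
Hspa1b: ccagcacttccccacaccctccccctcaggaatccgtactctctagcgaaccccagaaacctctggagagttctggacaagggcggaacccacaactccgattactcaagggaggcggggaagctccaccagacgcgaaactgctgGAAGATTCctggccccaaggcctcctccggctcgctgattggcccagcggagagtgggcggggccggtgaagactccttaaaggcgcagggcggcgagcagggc
How reads matching both copies were treated is not given in the sources used here, and its part in the absence of a call was not tested. The remaining Hspa genes also lacked a summit within 1 kb. The nearest one was 4.06 kb from Hspa4l, an Hsp110 gene, where it had a height of 13 and lay within 1 kb of an end of the cell cycle kinase gene Plk4. It was 34.5 kb from Hspa12b, 372 kb from the testis gene Hspa2 and 483 kb from Hspa13. For Hspa12a it was 32.0 kb from an end with a height of 13, but inside the gene. The Hsp110 gene Hsph1, a classical heat-inducible gene, was 241 kb from the nearest summit.

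Of the 3 Hsp90 genes, Hsp90b1 and Hsp90ab1 had an interval. Hsp90b1 encodes Grp94, the Hsp90 of the endoplasmic reticulum, and its summit of height 21 lay 636 bp upstream of the start, within 1 kb of an end of Ttc41 as well. By the nearest summit of each gene, this was the member just inside the 1 kb limit. Hsp90ab1 encodes the constitutive cytosolic Hsp90 beta. Its interval, chr17:45572342-45574303, was the widest of all chaperone intervals at 1962 bp and had a height of 19, with the summit 627 bp beyond the higher-coordinate end of the gene. Hsp90aa1, which encodes the heat-inducible cytosolic Hsp90 alpha, was 89.1 kb from the nearest summit. Its counterpart Hsp90ab1 was therefore the cytosolic Hsp90 gene with a call in this library.

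Hspd1 and Hspe1 encode the mitochondrial chaperonin Hsp60 and its lid Hsp10, and are transcribed in opposite directions from starts close together on chromosome 1. A single interval, chr1:55087200-55088382, covered the annotated starts of both genes and had a height of 17, which 1179 summits (33.9%) exceeded. Its summit was 316 bp downstream of the nearest Hspd1 start and 532 bp upstream of the Hspe1 start, so it lay inside Hspd1. The 215 bases between these starts are shown because they lie inside the interval and hold overlapping heat shock element letters, 3 matches in all, in capitals. They are written 5′ to 3′ on the plus strand, the strand of Hspe1, from chr1:55087933-55088147 (RefSeq, GRCm38.p6).
Hspd1-Hspe1: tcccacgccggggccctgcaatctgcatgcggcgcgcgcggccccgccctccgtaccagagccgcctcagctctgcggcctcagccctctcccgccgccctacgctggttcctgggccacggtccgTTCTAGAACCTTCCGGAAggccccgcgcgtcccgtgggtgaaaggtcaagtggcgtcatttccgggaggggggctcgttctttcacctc
The capitals mark letters only, and whether a heat shock factor or Dlx5 was attached to them was not measured. With the shared interval counted once, 24 genes or gene pairs had a summit.

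CCT is a cytosolic ring of 8 different subunits that folds actin and tubulin. Of the 9 Cct genes in the set, 5 had a summit (55.6%), beside 11.3% of all genes. Cct5 had a height of 22 with the summit 61 bp upstream of its nearest start, in an interval (chr15:31601232-31602381) that also lay within 1 kb of an end of the mitochondrial lysine methyltransferase gene Atpsckmt. Cct4 had a height of 20 and lay 33 bp from the lower-coordinate end of the gene. Cct8 had a height of 17 and lay 3 bp from its start, the nearest of all. Cct6a and Cct7 both had a height of 15. Their summits lay closer to the start of the divergent neighbor than to their own, at 85 bp from Psph against 188 bp from Cct6a, and at 77 bp from Pradc1 against 388 bp from Cct7. The alpha subunit of the ring is encoded by Tcp1, whose symbol keeps it out of the set, and it had a summit of height 16 at 0.183 kb from an end. The 8 genes of the somatic ring are a grouping outside the rule, made with earlier results of these data known. With Tcp1 included and Cct6b and Cct8l1 left out, 6 of the 8 had a summit. Cct2, with the nearest summit at 469 kb, and Cct3, at 258 kb, did not. The testis subunit gene Cct6b was 144 kb and Cct8l1, a Cct8-like gene, was 608 kb from a summit. Of the 4 chaperone genes on chromosome 15, Cct5 was the one with a summit. This chromosome stood apart over all genes, with a summit at 165 of its 776 genes (21.3%) and a median height of 18 over 146 intervals at gene ends, beside 11.0% of genes and a median height of 15 on the other autosomes. An extra copy of it is the recurrent karyotype change described for these lymphomas, and its part in the counts and heights at Cct5, Dnajc22, St13 and Pfdn5 was not tested. Without this chromosome, 24 of 79 chaperone genes (30.4%) had a summit.

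The J-domain genes numbered 45, of which 10 (22.2%) had a summit within 1 kb, beside 11.3% of all genes. In Dnaja, the second gene after Dnaja2 was Dnaja1, a cochaperone of cytosolic Hsp70, with adjacent intervals at its start. The one nearer to the gene end had a height of 11 at 124 bp downstream of the first start and lay within 1 kb of an end of the DNA repair gene Aptx, and the other had a height of 16 at 238 bp from the nearest start. Dnaja3, which is mitochondrial, and Dnaja4 were 124 kb and 433 kb from a summit.

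In Dnajb, Dnajb4 followed Dnajb14 with a height of 21, 125 bp upstream of its nearest start, in an interval 1631 bp wide that lay within 1 kb of an end of Fubp1, which encodes a regulator of Myc transcription. Dnajb13, a gene of the sperm flagellum, had a height of 19, but its summit was 12367 bp from its start and 563 bp beyond the opposite end of the gene. Dnajb6, a cochaperone that suppresses protein aggregation, and Dnajb12, a J-domain protein of the endoplasmic reticulum membrane, both had a height of 14, at 58 bp upstream and 209 bp downstream of a start. Dnajb1, which encodes the main heat-inducible Hsp40, was 39.9 kb from the nearest summit. Dnajb7 was 7.01 kb from a summit of height 33 that lay within 1 kb of the ends of St13 and Xpnpep3. The other 6 Dnajb genes lay from 44.2 kb (Dnajb2) to 4115705 bp (Dnajb9, an endoplasmic reticulum J-domain protein) from a summit, and Dnajb9 was the farthest of all 83 genes.

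In Dnajc, Dnajc16 had a summit of height 19 at 108 bp upstream of its start. Dnajc2, which encodes the ribosome-associated chaperone zuotin, had a height of 12 at 256 bp from its higher-coordinate end, in an interval within 1 kb of an end of the proteasome gene Psmc2. Dnajc3 encodes P58IPK, an inhibitor of the stress kinase PERK in the endoplasmic reticulum, and had a height of 10 at 148 bp downstream of its start. Dnajc7, a cochaperone that binds both Hsp70 and Hsp90, was the gene just outside the limit. Its summit, of height 15 and within 1 kb of an end of Nkiras2, lay 1220 bp inside the higher-coordinate end and 555 bp downstream of an annotated start. Dnajc25 likewise had a summit of height 13 at 103 bp from an annotated start and 8.5 kb from the gene end. At starts, Dnajc7 and Dnajc25 were the additional genes, so that 4 of the 20 Dnajc genes with a start entry had a summit there. Dnajc14, Dnajc27 and Dnajc22 lay 2.38, 8.85 and 9.16 kb from a summit, and the first of these summits was within 1 kb of Ormdl2 and Sarnp, the second of Adcy3. The other 20 Dnajc genes without a summit lay from 18.1 kb (Dnajc5b) to 2370 kb (Dnajc10) away.

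Of the 10 Hspb genes, Hspbap1 had a summit. Its product binds a small heat shock protein and is itself no chaperone. The height was 12, and the summit lay 90 bp from the start of the neighboring gene Slc49a4 and 1106 bp upstream of the Hspbap1 start. The small heat shock genes in the stricter sense had none. Hspb1, which encodes Hsp27, was 73.5 kb from a summit, and the nearest of the family was Hspb7, a heart and muscle gene, at 19.4 kb. Without Hspbap1, Hspbp1 and Hspb11, whose products are not small heat shock proteins, 24 of 80 chaperone genes had a summit.

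The rule itself placed the summits within 1 kb of a gene end, and within that limit 16 of the 25 chaperone genes (64.0%) had one within 250 bp, beside 1431 of the 2345 genes with a summit (61.0%). Positions at starts are given as a description. Of the 25 genes, 20 have an annotated start in the promoter table, and in 18 of these the nearest summit lay within 1 kb of it, with 9 upstream and 9 downstream. In 14 it lay within 250 bp, and the median distance over the 18 was 137.5 bp. The interval contained a start of the gene in 16. The exceptions beyond 1 kb were Dnajb13 and Hspbap1. Summit positions are approximate, as 3329 of the 3477 Myc-Tag summits fell on a multiple of 16 bp. For Cct4, Hspa9 (chromosome 18), Dnajc2, Hspa8 and Hsp90ab1 the distance could be given from the gene end only. Of the 25 intervals, 10 also lay within 1 kb of another protein-coding gene, so the assignment to the chaperone gene is by distance and is shared with that neighbor.

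**Figure D3:**
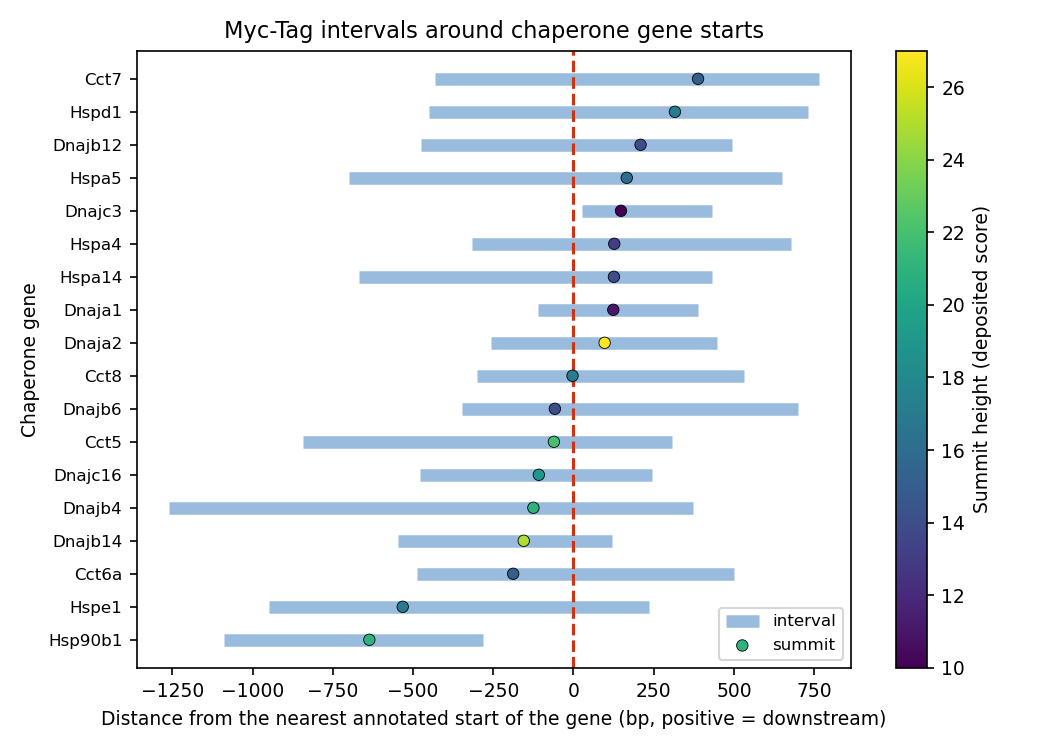
Bars show the called intervals of the 18 chaperone genes with a summit within 1 kb of an annotated start, on an axis of bp from that start with downstream positive, and points show the summits, colored by height (deposited score). For most genes the bar crosses the start at 0, and the Hsp90b1 summit lies farthest away at 636 bp upstream.

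Of the 58 genes without a summit within 1 kb, 8 lay within 10 kb of one, 24 between 10 and 100 kb and 26 farther. The median distance over all 83 genes was 34.5 kb, and over all 20665 genes it was 117 kb. Lists of proteasome subunits and of translation factors, known as housekeeping genes, were placed beside them. Of 39 proteasome subunit genes 9 had a summit within 1 kb (23.1%, interval 12.6 to 38.3%), and of 68 translation factor genes 22 had one (32.4%, interval 22.4 to 44.2%). Their median distances were 35.1 and 21.8 kb. Each of the 3 shares lay within the intervals of the others, and differences between chaperone genes and these lists were not tested.

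**Figure D4:**
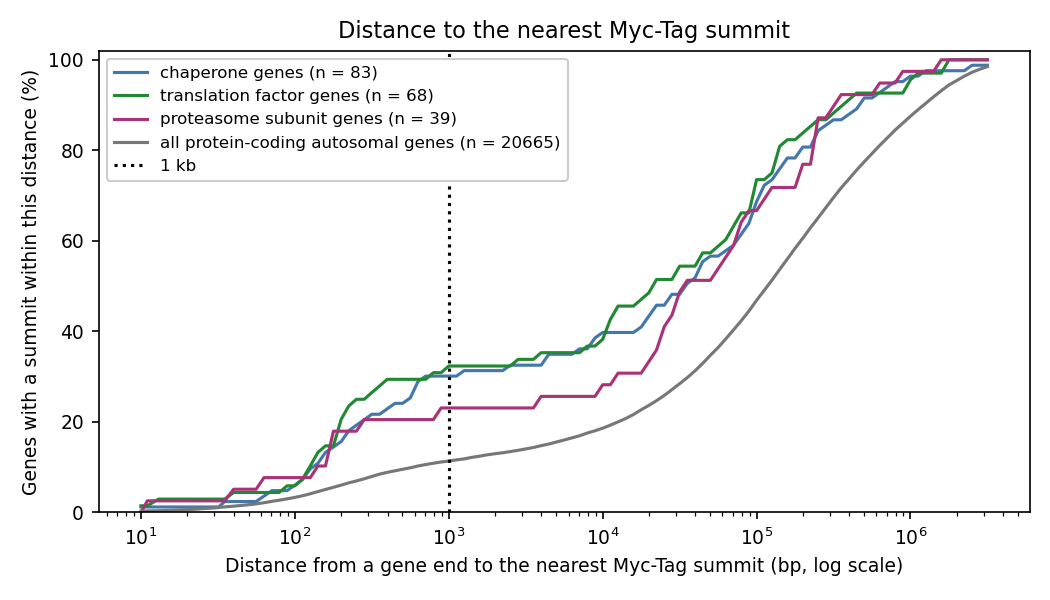
The curves give the percentage of genes with a Myc-Tag summit within a given distance (bp, log scale) of a gene end, for 83 chaperone, 68 translation factor, 39 proteasome subunit and 20665 protein-coding autosomal genes. At 1 kb, the dotted line, the chaperone curve is at 30.1% and that of all genes at 11.3%.

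The share of chaperone genes exceeded that of all genes at minimum heights across the range of the chaperone summits. At a height of at least 16, 15 of the 83 chaperone genes (18.1%) and 1241 of all genes (6.01%) had a summit within 1 kb. At a height of at least 20, the numbers were 7 (8.43%) and 531 (2.57%), and the 7 were Dnaja2, Dnajb14, Hspa9, Cct5, Dnajb4, Hsp90b1 and Cct4. At 25 or more, 2 chaperone genes (2.41%) remained, Dnaja2 and Dnajb14, beside 0.997% of all genes. No chaperone gene had a summit of at least 28, as against 133 of all genes (0.644%).

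**Figure D5:**
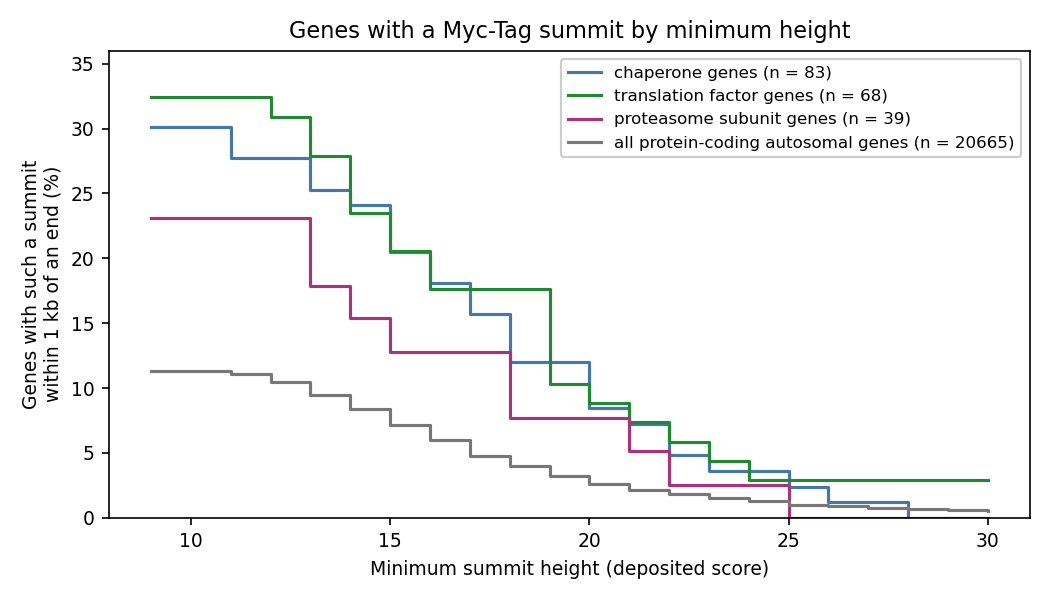
The lines give the percentage of genes with a Myc-Tag summit of at least a given height (deposited score) within 1 kb of an end, for the same 4 lists of genes. The chaperone line falls from 30.1% without a minimum to 8.43% at a height of 20 and reaches 0 at 28.

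Genes of proteins that regulate or assist the chaperones were described in the same way, from lists chosen by function. Of 51 such genes, 20 had a summit within 1 kb (39.2%, interval 27.0 to 52.9%), beside 11.3% of all genes, with a median height of 18 over 22 intervals. Among the 4 heat shock factors, Hsf4 had a summit of height 16, whereas Hsf1, the main activator of the heat shock response, was 75.3 kb from a summit, Hsf2 3.15 kb and Hsf5 77.9 kb. Of 13 Hsp90 cochaperone genes 4 had a summit, namely Ttc4 (height 19), Chordc1 (18), Fkbp5 (15) and Ptges3, which encodes p23 (14). Of 12 genes of Hsp70 cochaperones and nucleotide exchange factors 5 had one, namely St13, which encodes the Hsp70-interacting protein Hip (33), Bag5 (30), Bag6 (26), Bag1 (14) and Sil1 (11). The St13 and Bag5 summits were taller than every summit at the 83 chaperone genes.

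Among 8 chaperonin partner genes, Pfdn5, a subunit of the prefoldin complex that delivers clients to CCT, had a height of 19, and the phosducin-like gene Pdcl a height of 13, in addition to Tcp1. Of 5 mitochondrial chaperone and protease genes 3 had a summit. They were Trap1, the mitochondrial Hsp90, with a height of 41, the protease gene Lonp1 with 20 and the disaggregase gene Clpb with 17. The Trap1 summit was taller than every summit at the 83 genes. Of 9 genes of folding in the endoplasmic reticulum 4 had one, namely Canx, encoding calnexin (19), Sdf2l1 (19) and the disulfide isomerase genes Pdia6 (18) and Pdia3 (16), while the nearest summit to Calr, encoding calreticulin, was 1.45 kb away.

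Promoter sequence was available for 68 of the 83 genes, as 87 windows of 250 bases before to 50 bases after an annotated start (RefSeq, GRCm38.p6). Motif letters were counted on both strands, and a match is a description of the sequence. Heat shock element letters, GAANNTTC or TTCNNGAA, were in 22 of the 87 windows (25.3%), and in 15.1% of all 32851 promoter windows. They were in 8 of 26 windows of genes with a summit (30.8%) and in 14 of 61 windows of genes without one (23.0%). Of the genes with a summit, the windows belonged to Hspd1, Hspe1, Dnajb6, Cct6a, Dnaja1, Dnajb4 and Cct5. Dnajb6 was counted with 2 overlapping windows, the Hspd1 and Hspe1 windows overlap, and the Dnajb4 window is at a start more than 1 kb from its summit. Genes without a summit included Hspb1, Dnaja4, Hspa1a, Hspa1b and Hsph1, the last counted with 2 overlapping windows. Heat shock element letters were therefore found on both sides.

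The letters TAATT were in 2 of 26 windows of genes with a summit (7.69%) and in 10 of 61 without (16.4%), beside 27.0% of all promoter windows. For genes with a summit, these were the windows at the same distant start of Dnajb4 and at the start of Dnajb13, and in neither was the summit within 1 kb of the start in question. Base composition moved with this count. The median GC content was 64.0% in windows of chaperone genes with a summit, 61.0% in those without and 52.7% in all windows, and TAATT holds no G or C. The part of base composition in the count was not tested, and the windows cover 300 bases each, less than any of the 25 intervals. CCAAT was in 38.5% and 39.3% of windows with and without a summit and in 37.4% of all windows. The E-box CACGTG, the letters that Myc and Max bind, was in 11.5% and 8.20% of windows with and without a summit and in 7.15% of all.

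The endoplasmic reticulum stress element, CCAAT and CCACG separated by 9 bases, was in only 39 of all 32851 windows (0.119%) and in 3 of the 87 chaperone windows (3.45%). These were the windows of Hspa5, Hsp90b1 and Dnajc3, with 1, 2 and 1 matches. Each of these genes encodes a protein of the endoplasmic reticulum lumen, induced when unfolded proteins accumulate there. All 3 had a Myc-Tag summit, with heights of 16, 21 and 10, where the share of all genes was 11.3%. How many of the other genes with the element had a summit was not counted. Dnajb9, also of the endoplasmic reticulum, and 5 of the 9 listed genes of folding there had no summit within 1 kb. The Hspa5 match, 47 bp upstream of the start, lay inside the called interval. The Dnajc3 match, 87 bp upstream of the start, and the Hsp90b1 matches, 89 and 194 bp upstream, lay outside any called interval. No window of a chaperone gene without a summit held the element, among 61. With only 3 genes holding it, a relation between element and summit was not tested.

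The labelled cell type could be checked against intervals only, as expression was not part of these files. Of 9 T-cell marker genes, Cd3d (height 15), Cd8b1 (14), Rag2 (11) and Cd3g (10) carried a summit at most 1 kb from an end, with a median height of 12.5. The other 5 had none, as the nearest summit lay 7.46 kb from Cd4, 10.2 kb from Lck, 13.6 kb from Rag1, 16.8 kb from Cd3e and 50.8 kb from Cd8a. The share of T-cell markers with a summit has a Wilson interval of 18.9 to 73.3%, and the share of all genes was 11.3%. None of 3 B-cell, 4 myeloid, 2 erythroid and 2 stromal or epithelial marker genes had one, and at the share of all genes lists this short would often have none. An interval at a gene does not measure its expression, and with such short lists the shares of the other lineages have Wilson intervals that reach up to 49.0% or more and overlap that of the T-cell markers.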

How the data were processed

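The members and lists were chosen with earlier results of these data known. Per the methods, Active Motif performed the ChIP-seq on an Illumina GA II and called peaks by MACS p-value. The submitters' processing notes name BWA and mm9. Versions, threshold and the control used for calling are not given in the sources used here. The authors deposited intervals, summits and, for each summit, a score that is its height, as a whole number without stated normalization, so depth and the precision of a height are unknown. The active regions track held the same 3477 intervals. The deposited coordinates were taken as mm10, the build written on the study's browser view: of 3377 summits on chromosomes with an annotated start, 1907 (56.5%) lay within 1 kb of a GRCm38 start.

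Summits were matched to the intervals containing them. Gene ends came from the RefSeq gene table of GRCm38.p6, and strand and starts from the RefSeq promoter table. Distances ran from the summit to the nearest gene end. Shares have Wilson 95% intervals, and the median height an order-statistic interval. With 1 library per group no p-value was computed. The genes named were all those with a summit within 1 kb, every Hspa, Hsph, Hsp90, Hspd, Hspe and Cct gene, and the Hspb and Dnaj genes within 10 kb of a summit. Others in the text, including the partner and marker genes, were named as examples after their values were seen. Starts were counted from 1. Python 3.11.15 was used with numpy 2.4.6, pandas 2.3.3, scipy 1.17.1, matplotlib 3.10.9 and biopython 1.88. The counting code was checked with simulated summits placed by the same 1 kb rule at genes chosen to lie apart from others. It returned 200 of 200 such genes among 20665, with 0 false calls. This does not measure how accurately real intervals are assigned to genes. Alternatives were minimum heights, other distances and overlaps, starts only, removal of input calls or of chromosome 15, and other gene lists. The expression arrays of the study were not used here.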

Additional observations from a re-analysis of the deposited data

How the results depend on the processing

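No paired analysis was possible because the Myc-Tag ChIP and the input were single libraries and no test was run. The 25 genes and 25 intervals fell to 15 and 14 at summit heights of at least 16, with 1241 of all genes, and to 10 and 10 at heights of at least 19, with 673 of all genes, as the fewer summits require. With the summit within 250 bp, 16 genes, 16 intervals and 5 families remained, beside 1431 of all genes. With intervals overlapping the gene body or 10 kb on either side, there were 38 intervals and 34 of 83 chaperone genes (41.0%), beside 4147 of all genes (20.1%). Of 49 alternatives of the main results, the other 37 moved less, including 29 genes within 5 kb, 20 genes whose end was overlapped and 24 of 79 genes without chromosome 15. In each of the 10 settings with a background, the share of chaperone genes exceeded that of all genes, by 2.04 times (gene body or 10 kb) to 3.68 times (height of at least 19), and 2.66 times as reported. Of 90 alternatives of the family counts, 23 moved by over 1.5 times. At heights of at least 19, Hspa fell to 1 of 13, Cct to 2 of 9 and Hspd with Hspe to 0. Removing input calls changed no member. Depth, replicate error and binding below the calling threshold could not be assessed.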

Other observations

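Further Myc-Tag intervals lay near chaperone genes but more than 1 kb from their ends. Cct5 had another interval, chr15:31586362-31587086, with a height of 27 at 4.14 kb beyond the gene end opposite its start, taller than the summit of 22 at its start and with no other protein-coding gene end within 1 kb. Dnajc22, a J-domain gene of chromosome 15, had a summit of height 23 at 9.16 kb, also with no coding gene end within 1 kb. Additional intervals accompanied those at the ends of Dnajb14 (height 16 at 2.89 kb, near H2az1), Dnajb13 (13 at 2.12 kb) and Dnajc2 (12 at 1.55 kb). None of these was called in the input.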
